A study of Sus scrofa with 16 samples.

Results

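The mitochondrial genome of the pig carries the mRNAs of a small set of respiratory chain subunits, and 10 of them were followed here in the pituitary: ND1, ND2, ND3, ND4L, ND4, ND5 and ND6 of complex I, CYTB of complex III, COX1 of complex IV and ATP6 of the ATP synthase. They were taken as a list of gene names on chromosome MT with no threshold on a measured value, and they are 10 of the 25880 genes in the count table. The list does not hold the other mRNA rows there, COX2, ATP8 and COX3, of which COX2 and COX3 had the smallest log2 fold changes of the 13. Their mean levels were higher in high feed conversion (HFC) than in low feed conversion (LFC) glands for all 10 genes, by 1.43 to 2.39 fold, and none of the 10 passed the adjusted threshold by edgeR or DESeq2. The HFC library with the highest level of all 10 mRNAs, HFC replicate 16, was also the library with the most PCSK2 and PAX7 mRNA, which mark melanotrophs of the intermediate lobe, and the most POMC mRNA.

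The respiratory chain is built from subunits of both genomes. Mitochondrial DNA is transcribed from each strand as a long precursor that is cut at tRNAs into single or bicistronic mRNAs, and of these mRNAs ND6 alone is read from the light strand. Complexes I, III and IV pump protons across the inner membrane and the ATP synthase lets them flow back to make ATP, on which endocrine cells draw for peptide synthesis and secretion.

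On chromosome MT of Sscrofa11.1 the 10 genes cover 9733 bases of annotated length and, as mitochondrial genes, hold no introns. ND1 (ENSSSCG00000018065) runs from 3922 to 4876 and ND2 from 5087 to 6128, followed by COX1 (ENSSSCG00000018075) from 6511 to 8055 and ATP6 from 9120 to 9800. ND3 lies at 10653 to 10998, ND4L at 11069 to 11365, ND4 at 11359 to 12736 and ND5 (ENSSSCG00000018091) at 12935 to 14755. ND6 (ENSSSCG00000018092) lies at 14739 to 15266 and CYTB, the last, at 15342 to 16481. Both rRNA genes stand before ND1, and COX2, ATP8 and COX3 stand between COX1 and ND3.

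The libraries came from whole pituitaries of 16 unrelated female Puławska pigs from different farms, a native Polish breed under conservation. The LFC group was 8 gilts (replicates 1 to 8) and the HFC group 8 gilts (replicates 9 to 16), feed conversion being the feed used per unit of gain. No treatment was given, and all animals were housed and fed alike at 1 test station. Per the labels the gilts were 3 months old, although the study's methods put slaughter later. The p-values below therefore rest on 8 separate animals a group, and the whole gland, with both lobes, was homogenised.

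Libraries held 18.4 ± 3.36 M counts in the LFC group and 15.2 ± 3.24 M in the HFC group (SD, n = 8 each). The 7 endocrine markers GH1, PRL, POMC, TSHB, FSHB, CGA and POU1F1 had counts in every library, and together they reached 83083 to 232668 CPM (counts per M of the library's total). The highest sum was that of HFC replicate 16, where POMC alone had 220016 CPM. Every other marker of the list lay below all LFC libraries there. TSHB was at 0.0545 CPM (lowest LFC library 34.3), CGA at 1529 CPM (15467) and FSHB at 467 CPM (1680). TSHB was low too in HFC replicates 11 (1.45 CPM) and 15 (5.43 CPM). LFC replicate 5, HFC replicate 13 and HFC replicate 14 stood apart on the first principal component, which held 41.8% of the variance. HFC replicate 14 also carried 15581 CPM of ACTA1 and 3543 CPM of CKM, both of skeletal muscle. The 3 muscle markers summed to 19439 CPM in that library, 15.8 to 25.2 CPM in LFC and 14.6 to 53.3 CPM in the other HFC libraries.

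The 10 mRNAs together took 1.04 to 3.23% of all counts in LFC, with a median of 2.36%, and 2.10 to 6.12% in HFC, with a median of 3.47%. The lowest library was LFC replicate 3 and the highest HFC replicate 16, and the groups overlapped, with 5 of 8 HFC libraries above the highest LFC library and 3 of 8 LFC libraries below the lowest HFC library. The mean share was 2.22 ± 0.666% for LFC gilts and 3.53 ± 1.17% for HFC gilts (SD, n = 8 each), 1.32 percentage points or 1.59 fold higher. Depth hardly limits such a share, since the 95% Wilson interval of HFC replicate 16 ran from 6.10 to 6.13%, which covers counting error only. With counts outside the mitochondrial genome as denominator the mean was 1.63 fold higher in HFC.

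The library with the highest share was also the highest in melanotroph markers. Whether the shares of the other libraries follow those markers was not tested. PCSK2, a prohormone convertase of the intermediate lobe, lay at 1.86 to 29.5 CPM in LFC. It lay at 2350 CPM in HFC replicate 16, 321 CPM in HFC replicate 11, 156 CPM in HFC replicate 14 and 116 CPM in HFC replicate 15. These 4 libraries were above every LFC library in PCSK2, and their shares were, in that order, 6.12%, 3.42%, 3.66% and 2.97%. HFC replicates 9 and 10 had shares of 3.63% and 3.53% with 11.4 and 2.87 CPM of PCSK2, and LFC replicate 1 had the highest LFC share with 3.31 CPM. PAX7, a transcription factor of melanotrophs, ordered the same libraries at the top, with 301 CPM in HFC replicate 16, 33.1 CPM in HFC replicate 11 and 15.9 CPM in HFC replicate 14, against at most 3.37 CPM in LFC, and it was at 0 in LFC replicate 5. POMC, the hormone precursor of corticotrophs and melanotrophs, reached 220016 CPM in HFC replicate 16 and lay at 6240 to 58042 CPM in LFC. It was high in LFC replicate 5 (58042 CPM) and HFC replicate 13 (58882 CPM) too, whose shares of 1.66% and 2.10% were low, and LFC replicate 5 had the least PCSK2. The 3 melanotroph markers summed to 6262 to 58044 CPM in LFC and 25739 to 222667 CPM in HFC, sums that were almost all POMC, and each of the 3 had an unadjusted p under 0.05 in the direction of HFC with no call after adjustment. The 5 markers of posterior lobe glia summed to 8.80 to 529 CPM in LFC and 11.3 to 1722 CPM in HFC, again highest in HFC replicate 16 and mostly CRYM, with RAX at 0 in 7 of 16 libraries and COL25A1 at 0 in 1. SCN7A of the same list went the other way, with 2.34 CPM in HFC replicate 16 and a median of 5.19 CPM in LFC. PRL, the hormone of lactotrophs, was at 250.3 CPM in HFC replicate 16 and 7302 to 79287 CPM in LFC. The part of the cell makeup in the mitochondrial result was not tested, and in whole glands more cells of a type and more RNA per cell cannot be told apart.

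**Figure D1:**
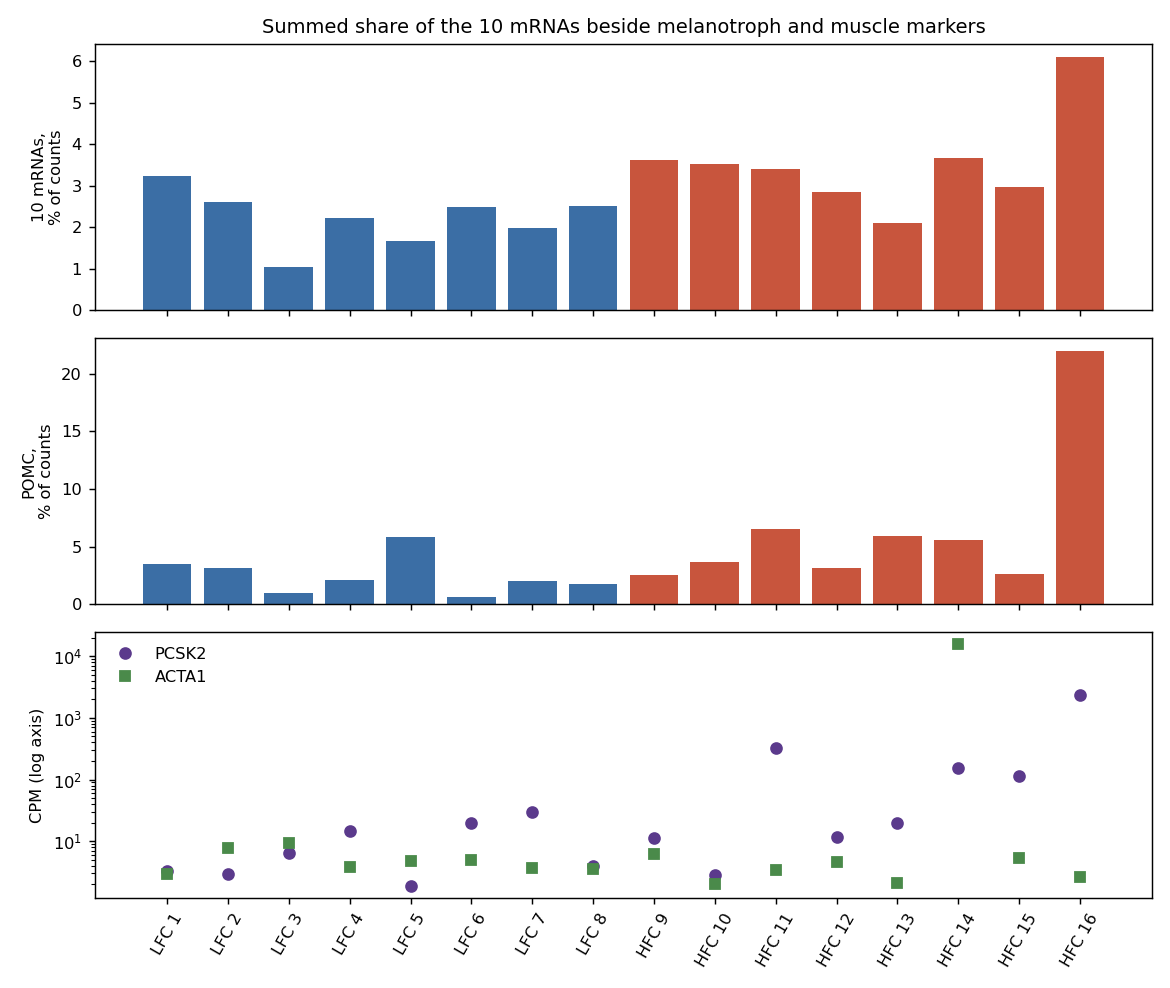
Upper panel, summed counts of the 10 mitochondrial mRNAs as percent of all counts in each library. Middle panel, POMC as percent of all counts. Lower panel, CPM of the melanotroph gene PCSK2 and the muscle gene ACTA1 on a log axis (LFC blue and HFC red in the bars). HFC 16 is highest in the upper 2 panels, the first at 6.12%, and in PCSK2, whereas ACTA1 is high in HFC 14, where the 10 mRNAs took 3.66%.

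Complex I is the entry point of electrons from NADH, and its mitochondrial subunits form the proton-pumping membrane arm. ND1, at the junction of the membrane arm with the matrix arm, had levels of 978 (lowest), 1288 (median) and 1543 CPM (highest) in LFC and of 1227, 1640 and 4231 CPM in HFC. Among HFC libraries 6 lay above every LFC library, and HFC replicates 10 and 13 lay within the LFC range. Its log2 fold change, HFC minus LFC, was 0.68 (SE 0.23), with an exact permutation p of 0.00497 and an edgeR adjusted p of 0.612.

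ND2, an antiporter-like subunit of the same arm, had levels of 607, 1027 and 1258 CPM in LFC and of 901, 1408 and 4051 CPM in HFC. HFC replicate 13 alone fell within the LFC range, and the other 7 HFC libraries lay above it. The log2 fold change of ND2 was 0.85 (SE 0.27; exact permutation p = 0.00684, edgeR adjusted p = 0.612).

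ND3, a short subunit next to the quinone site, lay at 226 to 856 CPM in LFC (median 483) and 519 to 1179 CPM in HFC (median 597). The highest LFC library here was replicate 5, which was the lowest for ND1, ND2, ND4L and ND4, and only 2 HFC libraries lay above it. Its log2 fold change of 0.51 (SE 0.23) was the smallest of the 10, with an exact permutation p of 0.0446 and an edgeR adjusted p of 0.839.

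ND4L and ND4 are carried by a single bicistronic mRNA and share 7 bases in the annotation. ND4L, the subunit with the shortest row, lay at 24.8 to 140 CPM in LFC (median 82.1) and 26.8 to 319 CPM in HFC (median 111). Its groups overlapped widely, with 2 HFC libraries above the LFC range. Its log2 fold change of 0.71 (SE 0.40; exact permutation p = 0.208, edgeR adjusted p = 0.930) was the only one of the 10 with an unadjusted edgeR p above 0.05. ND4, an antiporter-like subunit, lay at 697 to 1929 CPM in LFC (median 1592) and 927 to 5137 CPM in HFC (median 2156). For ND4, 6 HFC libraries lay above the LFC range, and the log2 fold change was 0.72 (SE 0.29; exact permutation p = 0.0572, edgeR adjusted p = 0.755).

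ND5, the antiporter-like subunit at the far end of the arm, lay at 128, 575 and 810 CPM in LFC (lowest, median, highest) and at 371, 1025 and 3320 CPM in HFC. The lowest LFC value was that of replicate 3, and 6 HFC libraries lay above the LFC range. The log2 fold change was 1.25 (SE 0.42; exact permutation p = 0.0294, edgeR adjusted p = 0.612).

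ND6, the light-strand member, lay at 39.4, 302 and 531 CPM in LFC and at 376, 667 and 1044 CPM in HFC. LFC replicate 3 held the lowest level and 6 of 8 LFC libraries lay below every HFC library, while 6 of 8 HFC libraries lay above every LFC library. Its log2 fold change of 1.26 (SE 0.37) was the highest of the 10, with an exact permutation p of 0.00109 and an edgeR adjusted p of 0.612. The libraries keep no strand and the ND5 and ND6 rows share 17 bases, so reads of ND6 and of heavy-strand precursor across the same stretch cannot be told apart.

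CYTB is the only subunit of complex III made in the mitochondrion and holds both haems of its b cytochrome. It lay at 2001, 3476 and 4195 CPM in LFC and at 3083, 4349 and 9194 CPM in HFC. Of the HFC libraries 5 lay above the LFC range and 3 LFC libraries lay below the HFC range. The log2 fold change was 0.58 (SE 0.21; exact permutation p = 0.00948, edgeR adjusted p = 0.656).

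COX1, the catalytic core of cytochrome c oxidase, was the most abundant of the 10, at 4161, 11412 and 14456 CPM in LFC and at 11633, 15784 and 28998 CPM in HFC. LFC replicate 3 was far below the other LFC libraries, 6 of 8 LFC libraries lay below every HFC library, and 6 of 8 HFC libraries lay above every LFC library. The log2 fold change was 0.65 (SE 0.23; exact permutation p = 0.00342, edgeR adjusted p = 0.655).

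ATP6, the subunit that lines the proton path of the ATP synthase, lay at 1051, 3251 and 4339 CPM in LFC and at 3032, 4770 and 10067 CPM in HFC. The order of libraries was much like that of COX1, with LFC replicate 3 lowest, HFC replicate 16 highest and 6 HFC libraries above the LFC range. The log2 fold change was 0.80 (SE 0.28; exact permutation p = 0.0129, edgeR adjusted p = 0.654). ATP6 shares 43 bases with ATP8 and 1 base with COX3, so reads at these joins are uncertain, as are reads of any member with a near-identical nuclear copy.

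**Figure D2:**
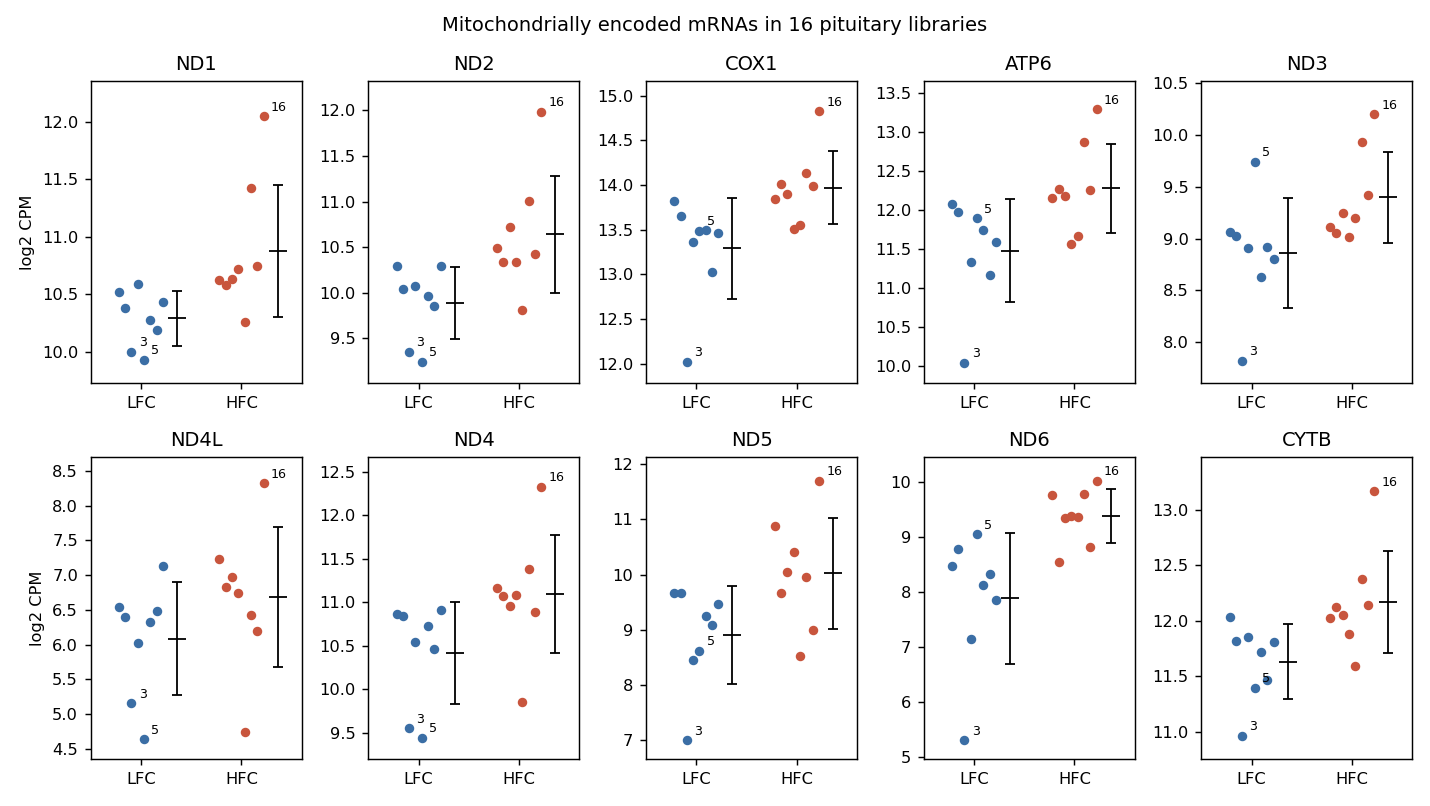
Log2 CPM of each of the 10 mRNAs in the 8 LFC (blue) and 8 HFC (red) libraries, 1 point a library, with the mean and SD of each group beside the points. LFC 3, LFC 5 and HFC 16 are numbered. HFC 16 is the highest point in all 10 panels, and the lowest LFC point is LFC 3 in 6 panels and LFC 5 in 4.

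All 10 log2 fold changes were positive, where 48.4% of the 14319 genes tested were. An unadjusted p under 0.05 in the direction of HFC was reached by 9 of 10 members, against 4.29% of all genes tested. The members vary together between libraries, so these counts are not of independent genes. No member was called at an adjusted p of 0.05 and a fold of 1.3, nor was any other gene (0% of all genes by edgeR, with 834 genes at an unadjusted p under 0.05). By DESeq2, 0.118% of the 16944 genes with an adjusted p were called, 20 genes, and again no member, the smallest adjusted p of a member being 0.147. The median log2 fold change was 0.72 over the members and −0.01 over all genes tested. Two-sided exact permutation tests of log2 CPM over all assignments of 8 of the 16 libraries gave an unadjusted p under 0.05 for 8 of 10 genes, from 0.00109 for ND6 to 0.208 for ND4L, with ND4 at 0.0572. For every member 7 or 8 of the 8 HFC libraries exceeded the mean of the LFC libraries. For the permutation and library counts no share of all genes is given here, so how unusual they are was not tested.

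Single libraries weighed on the size of these differences. Without HFC replicate 16 the median log2 fold change of the members was 0.48 and 7 members had an unadjusted p under 0.05. Without HFC replicate 16 and LFC replicate 3, the lowest library, the median was 0.39 and the count was 6 (ND1, ND2, COX1, ATP6, ND5 and ND6). These libraries were the extremes of their groups in the share of counts, so a smaller difference was built into the choice. Leaving out the library with muscle RNA, HFC replicate 14, gave a median of 0.71 and 8 members. Leaving out LFC replicate 5, HFC replicate 13 and HFC replicate 14 gave 0.77 and 10 members. For these and the later fits with libraries left out, the share of all genes at an unadjusted p under 0.05 is not given. The 4.29% of the fit of all 16 libraries need not hold for them.

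Without the 4 HFC libraries richest in PCSK2 (replicates 11, 14, 15 and 16), all 10 log2 fold changes were still positive, from 0.15 for ND3 to 1.14 for ND6, and the median was 0.36. Only ND5, with a log2 fold change of 1.03, and ND6 then had an unadjusted p under 0.05, in a fit of 8 LFC against 4 HFC libraries. The share of counts was 3.02 ± 0.707% in these 4 HFC libraries (SD, n = 4) against 2.22 ± 0.666% in LFC (SD, n = 8).

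**Figure D3:**
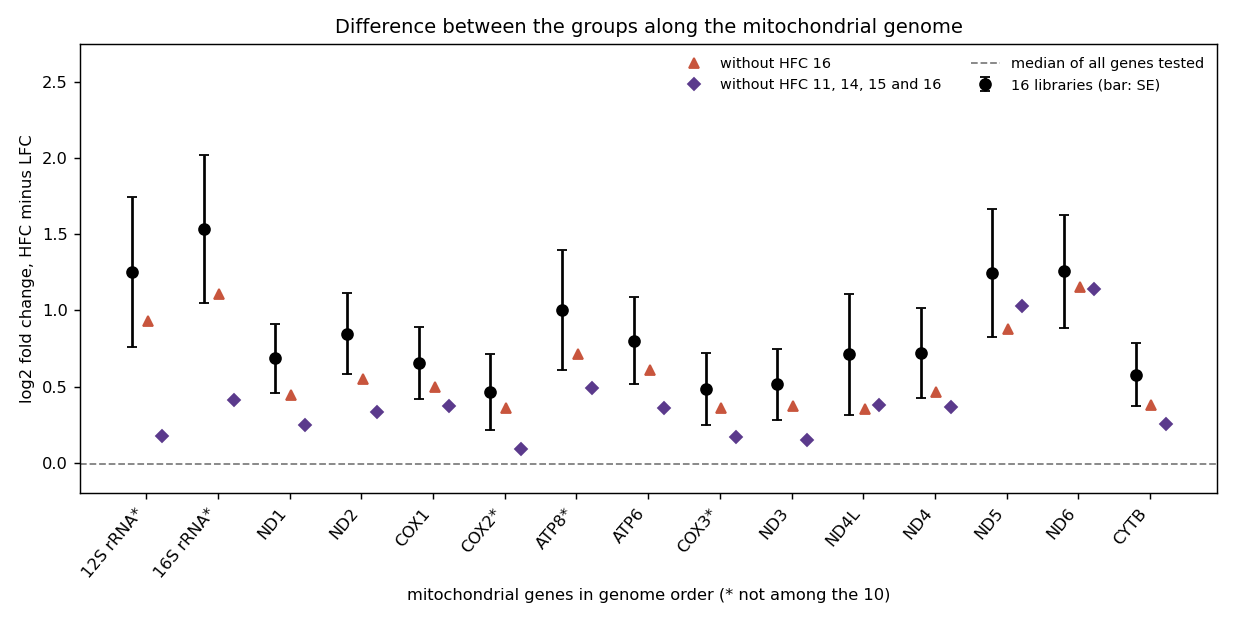
Log2 fold change, HFC minus LFC, of the 15 mitochondrial mRNA and rRNA genes in genome order, from edgeR on 16 libraries (black, bar is the SE), without HFC 16 (triangles) and without HFC 11, 14, 15 and 16 (diamonds). The dashed line is the median of all genes tested, −0.01. Every value lies above the line, the diamonds of ND5 and ND6 at 1.03 and 1.14 and those of the other 8 members between 0.15 and 0.38.

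The other mitochondrial rows had positive log2 fold changes too, so that all 13 mRNAs were positive and 10 of 13 had an unadjusted p under 0.05. Of the mRNAs outside the 10, COX2 had 0.46 (SE 0.25; exact permutation p = 0.0707) and COX3 0.48 (SE 0.24; exact permutation p = 0.0670). ATP8 had a median of 208 CPM in LFC and 372 CPM in HFC (exact permutation p = 0.0587). The rRNAs of the mitochondrial ribosome, 12S and 16S, had 1.25 (SE 0.49; exact permutation p = 0.0525) and 1.54 (SE 0.49; exact permutation p = 0.0218). A poly(A) kit retains little rRNA, and both rRNAs together held 0.270 to 1.19% of the mRNA counts in LFC and 0.341 to 1.39% in HFC. Without HFC replicates 11, 14, 15 and 16 the log2 fold changes of 12S and 16S were 0.17 and 0.41.

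Levels can be compared between genes only per length. On CPM (total counts) divided by the gene's length in kilobases, COX1 was the highest member with a median of 8159 over the 16 libraries, followed by ATP6 with 5530 and CYTB with 3431. ND3 (1638), ND1 (1643), ND4 (1380) and ND2 (1238) formed the middle, where ND3 and ND1 differed by 0.01 ± 0.42 on the log2 scale (SD over 16 libraries) and ND4 and ND2 by 0.09 ± 0.23, both within the spread. ND6 (777), ND5 (419) and ND4L (304) were lowest. ND2 and ND6 did not differ beyond their spread (0.65 ± 0.95), nor did ND5 and ND4L (0.46 ± 0.59), whereas ND6 lay above ND5 in 16 of 16 libraries. COX1 lay 26.8 fold above ND4L on this scale. ND4L and ND4 are carried by a single mRNA yet had 304 and 1380. Counts per length therefore need not give the level of the message. The reason for the gap between these rows was not tested. The rows of COX1 and ATP6 stood above those of complex I per length.

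Ratios within a library need no scaling and were compared for 3 pairings. ND6 held 0.394 to 2.46% of the counts of the other 9 members in LFC, with a median of 1.22%, and 1.16 to 2.96% in HFC, with a median of 2.13%. The log2 ratio was higher by 0.82 in HFC, with a two-sided exact permutation p of 0.0308 and 0.0923 after adjustment over the 3 ratios, so the difference did not hold after adjustment. LFC replicate 3 had the lowest ratio of the 16 libraries and HFC replicate 13 the highest, and the difference was 0.60 without LFC replicate 3. ND4L held 3.58 to 7.25% of the counts of ND4 in LFC and 2.90 to 6.55% in HFC, a log2 difference of −0.08 (exact permutation p = 0.704). CYTB, the last heavy-strand mRNA gene, held 195 to 285% of the counts of ND1, the first, in LFC and 194 to 291% in HFC, a log2 difference of −0.05 (exact permutation p = 0.587). Both differences were smaller than the SD within either group.

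The makeup of the pool also varied. Of the counts of the 13 mitochondrial mRNAs, COX1 held 28.7 to 35.2% in LFC and 29.4 to 36.6% in HFC, ATP6 7.24 to 10.7% and 8.71 to 12.3%, and CYTB 7.11 to 13.8% and 8.73 to 10.8%. ND5 ranged from 0.881 to 2.18% in LFC and from 1.08 to 4.39% in HFC, and ND6 from 0.272 to 1.40% and from 0.832 to 2.03%. The log2 count of each mRNA was set against the mean of the 13 in its library. It was then set against the gene's own mean over all libraries. On this log2 scale ND4L was low in LFC replicate 5 and HFC replicate 13, at −1.30 and −1.23, and ATP8 at −1.42 and −1.03. ND6 was high in the same libraries, at 0.87 and 1.15, and ND3 at 1.06 and 0.48. LFC replicate 3 had relatively much ND1 (0.94) and CYTB (0.59) and relatively little ND6 (−1.81) and ND5 (−0.94). HFC replicate 14, which also stood apart on the first component, was near the other libraries in ATP8 (0.07) and ND3 (0.10). It was low in ND4L (−0.66), where the lowest library besides LFC 5, HFC 13 and HFC 14 had −0.37. In ATP6 it had 0.29, where the highest of those other libraries had 0.19.

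With each gene centred on its group means, all 45 pairs of members had a positive Pearson r over the 16 libraries, from 0.16 for ND3 with ND4L to 0.97 for COX1 with ATP6, with a median of 0.71. Spearman's rho ran from 0.16 to 0.94 with a median of 0.61. After adjustment over the 45 pairs, 35 held at 0.05 by Pearson's r and 27 by Spearman's rho (100000 permutations). COX1 and ATP6 had r = 0.97 and rho = 0.94, both with the smallest permutation p that could be had, 1e-05, and r = 0.94 without the 2 libraries farthest from the median of COX1. ND1 with ND2 (r = 0.94, rho = 0.93), ND2 with CYTB (r = 0.94, rho = 0.88), ND2 with ND4 (r = 0.93, rho = 0.91) and ND4L with ND4 (r = 0.93, rho = 0.80) came next among the pairs with high r. ND6 had the lowest median r with the other members, 0.45, and its r was 0.26 with ND1 and 0.77 with ND3.

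The co-variation was weaker without the libraries of lowest and highest share, and leaving out extremes by itself tends to lower r. Without LFC replicate 3 and HFC replicate 16 the median r was 0.41 and the lowest −0.50, for ND3 with ND4L, and COX1 with ATP6 stayed at 0.93, ND2 with ND4 at 0.90 and ND4L with ND4 at 0.90. Without LFC replicate 5, HFC replicate 13 and HFC replicate 14 the median was 0.81 and the lowest 0.40. With the 2 libraries farthest from the median of the first gene left out of each pair, r ran from 0.13 to 0.94. All values of a library share its depth and its scaling factor, which ran from 0.751 to 1.13.

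**Figure D4:**
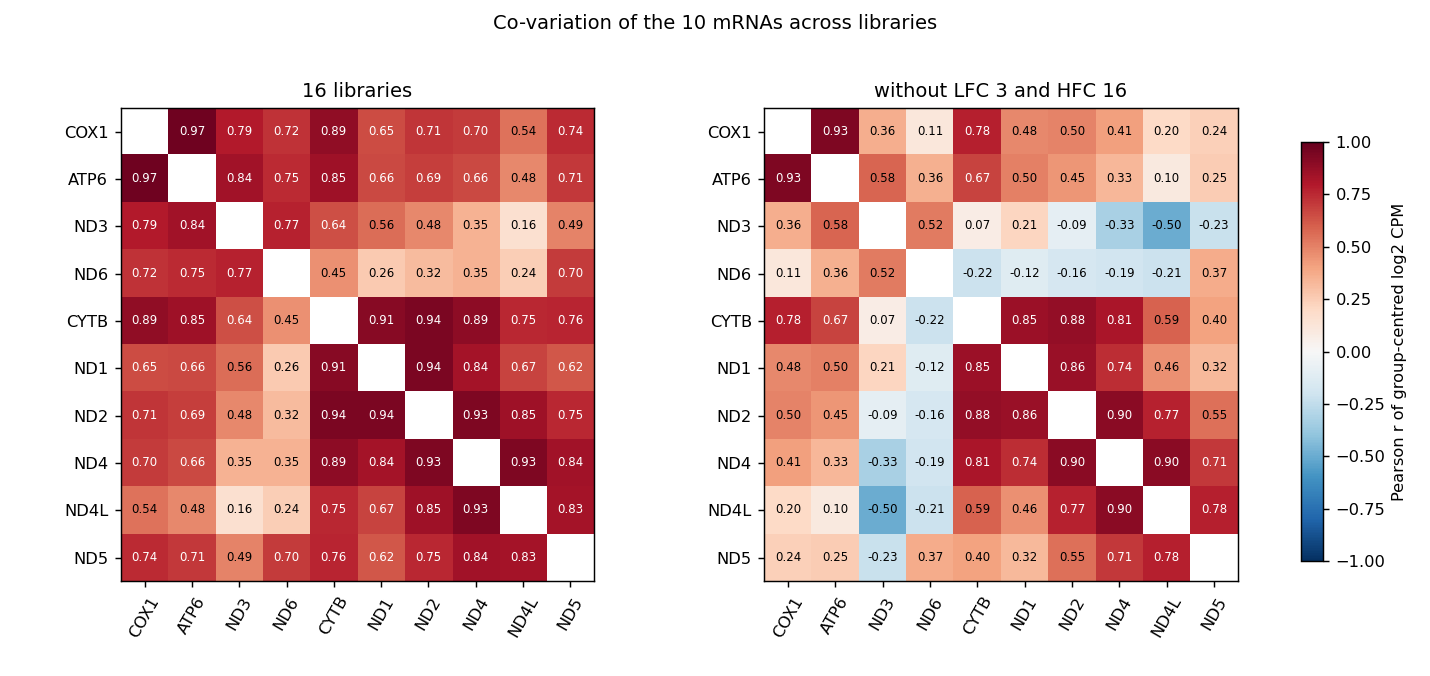
Pearson r of group-centred log2 CPM for each pair of the 10 mRNAs, over 16 libraries (left) and without LFC 3 and HFC 16 (right). On the left all 45 pairs are positive. On the right COX1 with ATP6 (0.93) and the block of ND2, ND4 and CYTB (0.81 to 0.90) remain high, and ND3 and ND6 have negative values with several other members.

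The genes outside the mitochondrial genome with the pattern most like the mean of the 10 members, on group-centred log2 CPM over 16 libraries, were PLXDC2 (r = 0.83), TOP2A (r = 0.81), PDE1C (r = 0.80), SYNJ2 (r = 0.80) and MEGF10 (r = 0.80). The least like were B4GALNT4 (r = −0.82), MVK (r = −0.82) and SAE1 (r = −0.81). They were the ends of a ranking of 12951 genes with a symbol, so no p is given. Without LFC replicate 3 and HFC replicate 16, r was 0.77 for PLXDC2, 0.76 for TOP2A, 0.63 for PDE1C, 0.62 for MEGF10 and 0.45 for SYNJ2, and −0.68 to −0.66 for the 3 least like. No gene of the nuclear respiratory chain was among these 8.

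For the nuclear genes that build the same complexes, the direction depended on single libraries, LFC replicate 5 and HFC replicate 16. Of 72 nuclear subunit genes of complexes I, III, IV and V tested, 24 had a positive log2 fold change (33.3%, against 48.4% of all genes), none had an unadjusted p under 0.05, and the median was −0.06. Without LFC replicate 5, 71 of the 72 were positive, against 54.6% of all genes in that fit, with a median of 0.28. In that fit 4 had an unadjusted p under 0.05 in the direction of HFC. The share of all genes that did so is not given, so how unusual this count is was not tested. Without HFC replicate 16, 37 of the 72 were positive (51.4%, against 47.9% of all genes in that fit), with a median of 0.003. In the fit of all 16 libraries, by complex, 12 of 37 genes of complex I, 3 of 7 of complex III, 6 of 13 of complex IV and 3 of 15 of complex V were positive. For complex I, the accessory subunits NDUFC2 and NDUFB6 had log2 fold changes of 0.20 (SE 0.21) and 0.17 (SE 0.19). For complex III, UQCR11, a small accessory subunit, had −0.36 (SE 0.40) and UQCRC2, a core subunit, 0.07 (SE 0.10). For complex IV, COX6A2, the isoform of heart and skeletal muscle, had 0.50 (SE 0.37) and NDUFA4 0.29 (SE 0.35), and without the library with muscle RNA, HFC replicate 14, they had −0.09 and −0.07. For complex V, ATP5I had −0.36 (SE 0.43) and ATP5G3 −0.20 (SE 0.25). Without LFC replicate 5, UQCR11 had 0.26, ATP5I 0.35 and ATP5G3 0.03.

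The mean log2 CPM of the 72 nuclear genes was 6.40 ± 0.56 in LFC and 6.42 ± 0.43 in HFC (SD, n = 8 each). That of the 10 mitochondrial mRNAs was 9.87 ± 0.51 and 10.65 ± 0.55. LFC replicate 5 had the highest nuclear mean, 7.73, with a mitochondrial mean of 9.75, and HFC replicate 16 had the highest mitochondrial mean, 11.79, with a nuclear mean of 6.02.

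**Figure D5:**
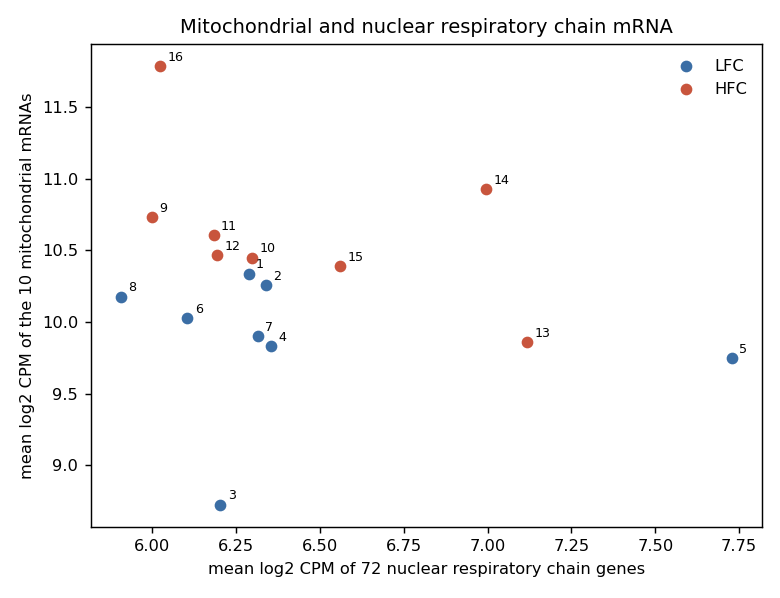
Mean log2 CPM of the 10 mitochondrial mRNAs against that of the 72 nuclear respiratory chain genes, 1 numbered point a library (LFC blue, HFC red). HFC 16 is highest on the vertical axis with a nuclear mean of 6.02, and LFC 5 is farthest right at 7.73.

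Genes that transcribe, process and translate mitochondrial RNA were near the background. Of 33 tested, 16 had a positive log2 fold change (48.5%, against 48.4% of all genes) and 2 had an unadjusted p under 0.05 in the direction of HFC (4.29% of all genes), with a median of −0.01. PPARGC1B, a coactivator of mitochondrial biogenesis, averaged 1.15 ± 0.452 CPM for LFC gilts and 2.64 ± 2.67 CPM for HFC gilts (SD, n = 8 each), a log2 difference of 1.19 in the fit (SE 0.45, adjusted p = 0.707 by edgeR) that was 0.58 without HFC replicate 16. TRMT10C, a subunit of the mitochondrial RNase P that cuts tRNAs from the precursor, had 5.18 ± 0.762 CPM and 6.64 ± 1.51 CPM, a log2 difference of 0.36 (SE 0.16, adjusted p = 0.828 by edgeR; 0.13 without HFC replicates 11, 14, 15 and 16), and all 8 HFC libraries exceeded the LFC mean. No gene of the list had an unadjusted p under 0.05 in the direction of HFC once LFC replicate 3 and HFC replicate 16, or HFC replicates 11, 14, 15 and 16, were left out. Of 12 genes that follow mitochondrial mass, 7 were positive and none had an unadjusted p under 0.05, with SDHD, the membrane anchor of complex II, at 0.17 (SE 0.13) and HSPA9, the matrix chaperone, at −0.11 (SE 0.09).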

How the data were processed

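Pituitary RNA of 16 gilts was converted to libraries with a non-strand-specific poly(A) kit. The authors cleaned the reads, aligned them to Sscrofa11.1 (Ensembl gene models) and counted them per gene. These raw counts were deposited unscaled, 1 column a library. The methods name Bowtie 2, STAR and RSEM. A further deposited table gave coordinates (an other unit, used here for position only) beside the authors' group means, fold and p-values, which were not used. Symbols came from that table, an identifier table (5454 genes) and, for 11 listed genes, position.

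Groups were compared with edgeR 4.0.16 (glmQLFit, TMM, filterByExpr, no covariate) in R 4.3.3, with Benjamini-Hochberg adjustment over 14319 genes. CPM are TMM-scaled for genes tested and log2 CPM used a prior count of 2. Marker CPM used total counts. Ratios had 1 added to each count. Exact permutation tests covered 12870 assignments, and correlations 100000 permutations (scipy 1.17.1). DESeq2 1.42.0, limma-voom 3.58.1, other scalings and filters, and left-out libraries were alternatives. Pairs of libraries of a group differed by more than sampling noise (smallest chi-square per degree of freedom 28.3).

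The 10 members and the gene lists were chosen with earlier results of these data known. Named genes are the 10 members, the other mitochondrial mRNAs and rRNAs, the 2 genes with the smallest unadjusted p of each list (the rule allowed up to 4), the 5 genes most and 3 least like the members' mean, and the cell type markers. A further endocrine marker is not reported here.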

Additional observations from a re-analysis of the deposited data

Results flagged for a closer look

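Each of 38 sets of 8 libraries (19 measures in each group) was searched for a library far from the other 7, and 7 were found, where chance gives about 1 in 20, or 1.9. LFC replicate 3 lay below the other LFC libraries in log2 CPM of COX1 (12.02 against 13.02 to 13.82), ATP6 (10.04 against 11.16 to 12.08) and ND5 (7.0 against 8.45 to 9.66), and in the log2 ratio of CYTB to ND1 (0.96 against 1.26 to 1.51). HFC replicate 16 lay above the other HFC libraries in log2 CPM of COX1 (14.82 against 13.51 to 14.13) and in the summed share of the 10 mRNAs (6.12% against 2.10 to 3.66%). LFC replicate 5 lay above the other LFC libraries in log2 CPM of 16S rRNA (8.16 against 5.90 to 6.91). These measures are not independent, since the members share a library.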

How the results depend on the processing

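No paired analysis was made, because the gilts were unrelated and the labels name no pairs. Over 26 other fits the log2 fold changes of the 10 members stayed positive (260 of 260 values, 0.15 to 1.5) and no member was called. These values are not independent, since the members vary together and the fits share most of their libraries. The count of genes called was 0 in each of these fits except DESeq2 (20), and 0 with no fold minimum. The count of members with an unadjusted p under 0.05 was 9 under each tool, scaling and filter, 7 to 10 with 1 library left out, and 2 without HFC replicates 11, 14, 15 and 16, an alternative chosen, like the other joint exclusions, after seeing the data. The cause was not tested. The difference in summed share was 0.948 to 1.52 percentage points with 1 library left out. The log2 difference in the ratio of ND6 to the other 9 members was 0.60 to 0.98 with 1 library left out, and without LFC replicate 5 (0.98) its adjusted exact permutation p was 0.0261. That of ND4L to ND4 was −0.14 to 0.03 with 1 library left out and 0.07 without LFC 5, HFC 13 and HFC 14. That of CYTB to ND1 was −0.10 to 0.00 with 1 library left out, and 0.02 both without LFC 5, HFC 13 and HFC 14 and without HFC 11, 14, 15 and 16. The median r of the 45 pairs was 0.64 to 0.78 with 1 library left out and 0.41 without LFC 3 and HFC 16. Of 72 nuclear genes, 71 had a positive log2 fold change without LFC replicate 5 and 37 without HFC replicate 16, against 24 with all libraries. Among those named the sign turned for UQCRC2 without LFC 5, HFC 13 and HFC 14 (−0.04), for COX6A2 (−0.08) and NDUFA4 (−0.09) without HFC 11, 14, 15 and 16, and for COX6A2 (−0.10) and ATP5I (0.34) by DESeq2. With 1 library left out, the range was −0.51 to 0.26 for UQCR11, −0.63 to 0.35 for ATP5I and −0.37 to 0.03 for ATP5G3 (each highest without LFC replicate 5), and −0.09 to 0.72 for COX6A2, −0.07 to 0.63 for NDUFA4 and 0.00 to 0.09 for UQCRC2 (each lowest without HFC replicate 14). The remaining limits are overlapping rows, nuclear copies of mitochondrial sequence and libraries without strand.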
